A study of Homo sapiens with 6 samples.

Results

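The interleukin-1 (IL-1) family genes described here are 10 genes fixed by name: the agonist ligands IL1A, IL1B, IL18 and IL33, the receptor antagonist IL1RN, the receptor chains IL1R1, IL1RAP and IL1RL1, the decoy receptor IL1R2, and the protease gene CASP1. All 10 were found in both deposited expression tables, each of which lists 25368 gene symbols. The rule uses gene names and no measured value, but the members were chosen with earlier results of these data known. No member was removed for a low level.

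IL-1α, encoded by IL1A, and IL-1β, encoded by IL1B, are cytokines that bind the same receptor IL1R1, which then recruits the co-receptor encoded by IL1RAP and signals through MYD88 and IRAK kinases to NF-κB and to MAP kinases including JNK. IL1RN encodes a ligand of IL1R1 that does not signal, and IL1R2 encodes a receptor that binds IL-1 without a signalling domain, so that both limit the response. Pro-IL-1β and pro-IL-18 are cleaved by caspase-1, IL-33 acts through the receptor encoded by IL1RL1 (ST2), and fibroblasts are known responders to IL-1, releasing IL-6, chemokines and matrix metalloproteinases.

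The data are RNA-seq expression values from 6 libraries of MRC5, a line of human embryonic lung fibroblasts that was immortalised with a lentivirus expressing hTERT, so all libraries come from a single line. In the first table, MRC5 cells were infected for 2 h with adenovirus carrying an empty vector (control), FLAG-tagged wild type JUN (JUN WT) or FLAG-tagged JUN with alanine in place of the serines that JNK phosphorylates (JUN AA), and then cultured for 3 days. In the second table, uninduced MRC5 cells were compared with induced cancer-associated fibroblasts (iCAFs), which are MRC5 cells kept for 7 days in serum-free conditional medium (CM) of MDA-MB-231, a human breast cancer cell line, and with iCAFs given a JNK inhibitor (iCAFs+JNKi) at 1 µM for 48 h. The treatment notes mention a DMSO vehicle, but the iCAFs library itself is not labelled as vehicle treated. The line was otherwise maintained in medium with serum. Serum may therefore also differ between MRC5 and iCAFs, and its effect was not tested. Each condition has 1 library, so there is no replicate error and no test between conditions, and a gene was called changed when the difference in log2(FPKM + 1) was at least 1, that is 2-fold on that scale. FPKM is the number of fragments of a gene per unit of exon length, relative to all fragments mapped in that library, and the +1 shrinks the changes of genes near 0. The tables were normalised separately, so values were compared only within a table. The FPKM of JUN was 25.5 (control), 4543 (JUN WT) and 291 (JUN AA), so both JUN vectors stood above the control, at levels that differed 15.6-fold from each other. In the second table JUN was at 57.1 FPKM (MRC5), 55.3 FPKM (iCAFs) and 21.1 FPKM (iCAFs+JNKi).

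These are fibroblast libraries by their markers. All 6 fibroblast markers (COL1A1, COL1A2, COL3A1, PDGFRB, VIM and THY1) were at 1 FPKM or more in every library, with summed levels between 3864 and 5947 FPKM. The summed level of 7 leukocyte markers was between 33.2 and 86.1 FPKM, nearly all of it CD68, and PTPRC, the pan-leukocyte marker, was listed at 0 in all 3 libraries of the iCAFs table. In the iCAFs table the leukocyte sum was 48.7 FPKM (MRC5), 39.7 FPKM (iCAFs) and 38.6 FPKM (iCAFs+JNKi). The summed level of 5 epithelial markers was 39.6, 32.8 and 39.3 FPKM in the same order. Most of it was KRT18 (28.7, 24.8 and 29.5 FPKM) and KRT8 (8.83, 7.06 and 9.67 FPKM). CDH1, the epithelial cadherin, was listed at 0 in all 6 libraries, while 3 endothelial markers summed to at most 0.310 FPKM. In bulk RNA, a smaller share of cells expressing a gene and less RNA of it per cell cannot be told apart.

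IL1A, IL1B and IL1RN lie in one cluster on chromosome 2, and the bases before their start sites are shown because the experiment acts on JUN, a subunit of the transcription factor AP-1. On GRCh37, the build of the deposited values, IL1A lies on the minus strand at chr2:113531502-113542070 and IL1B, also on the minus strand, at chr2:113587328-113594393, with 45257 bp between them. IL1RN lies on the plus strand at chr2:113856892-113891593, and the interval from IL1A to IL1RN spans 360092 bp and also holds IL37, IL36G, IL36A, IL36B, IL36RN and IL1F10. IL33 lies at chr9:6215786-6257983 (plus strand) and IL18 at chr11:112013976-112034819 (minus strand). The AP-1 heptamer TGAGTCA, searched on both strands and therefore also as TGACTCA, was looked for in the RefSeq promoter table (GRCh38.p14), whose windows reach from 250 bases before to 50 bases after a start site. Of 35116 windows, 4.95% hold the heptamer and 0.222% hold at least 2 copies. The 8 members found in the table (IL1A, IL1B, IL33, IL1RN, IL1R1, IL1RAP, IL1RL1 and IL1R2) have 17 windows, each with 1 exact match in GRCh37, and 3 of the 17 hold the heptamer: both windows of IL1A, which overlap and share the same copies, and 1 of 3 windows of IL1RN. A looser form of the NF-κB motif (GGG, any 5 bases, then CC, on both strands) was in 6 of the 17 windows, against 58.7% of all windows, and in none of the windows of IL1A and IL1B. A match of letters is a description of the sequence and does not show that a factor binds there.

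The sequences before the first start sites of IL1A, IL1B and IL1RN and the short stretch around the other IL1A copy are given 5′ to 3′ on the strand of the gene, in lower case with the AP-1 heptamer in capitals. They were read from RefSeq windows and placed on GRCh37 at chr2:113542071-113542320 (minus strand), chr2:113542021-113542040 (minus strand), chr2:113594357-113594606 (minus strand) and chr2:113875298-113875547 (plus strand), in the order shown. The first start site is that of the first RefSeq window of the gene. For IL1RN this stretch lies inside the gene interval given above, so it precedes that start site and not the whole gene. The IL1B stretch overlaps the 5′ end of its gene interval, at 113594393.
IL1A upstream: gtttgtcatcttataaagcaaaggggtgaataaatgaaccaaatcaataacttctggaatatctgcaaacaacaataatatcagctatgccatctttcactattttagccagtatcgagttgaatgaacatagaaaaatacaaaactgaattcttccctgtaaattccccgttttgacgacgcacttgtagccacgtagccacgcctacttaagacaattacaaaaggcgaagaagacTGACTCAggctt
IL1A second copy: ttggcgttTGAGTCAgcaaa
IL1B upstream: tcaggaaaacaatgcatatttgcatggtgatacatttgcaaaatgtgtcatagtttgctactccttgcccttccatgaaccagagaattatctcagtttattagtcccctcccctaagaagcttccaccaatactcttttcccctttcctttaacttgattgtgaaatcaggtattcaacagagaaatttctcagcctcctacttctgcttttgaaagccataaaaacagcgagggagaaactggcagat
IL1RN upstream: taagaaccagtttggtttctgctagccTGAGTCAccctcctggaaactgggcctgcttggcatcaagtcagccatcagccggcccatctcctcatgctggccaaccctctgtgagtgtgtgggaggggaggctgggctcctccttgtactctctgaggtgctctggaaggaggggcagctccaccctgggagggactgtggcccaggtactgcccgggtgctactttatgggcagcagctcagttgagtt
The 2 copies of IL1A start at positions -12 and 38 from its first start site. No heptamer was found in the IL1B window, and that of IL1RN starts at position -223. Sequence outside the windows, including any distant regulatory element of these genes, was not searched. GC content was 37.6% for the upstream stretch of IL1A, 40.0% for that of IL1B and 59.6% for that of IL1RN.

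In the CM-induced model, IL1A and IL1B were the members with the largest differences between iCAFs and MRC5 and between iCAFs+JNKi and iCAFs, whereas between iCAFs+JNKi and MRC5 they were IL1B and IL33. IL1B rose from a listed 0 to 194 FPKM in iCAFs and fell to 25.9 FPKM with JNKi, and IL1A rose from a listed 0 to 12.5 FPKM and fell to 0.761 FPKM. IL33 changed in the other direction with JNKi, from 0.335 to 3.01 FPKM. The antagonist IL1RN, the receptors and CASP1 did not reach a 2-fold difference in these comparisons. Of the 10 members, 2 were 2-fold higher in iCAFs than in MRC5, against 0.978% of all listed genes, and 0 were 2-fold lower, against 0.891%. With JNKi, 1 member was 2-fold higher than in iCAFs, against 1.18% of all genes, and 2 were 2-fold lower, against 1.02%. Between iCAFs+JNKi and MRC5, 2 members were 2-fold higher, against 1.71% of all genes, and 0 were 2-fold lower, against 1.79%. These 3 comparisons share libraries, and the fall of a gene with JNKi and its rise in iCAFs both rest on the single iCAFs library.

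In the adenovirus model, few members reached a 2-fold difference. None of the 10 was 2-fold higher in JUN WT than in control, against 3.0% of all genes, and none was 2-fold lower, against 1.45%. In JUN AA, 1 member (IL33) was 2-fold higher than in control, against 2.27% of all genes, and 0 were 2-fold lower, against 1.62%. Between JUN WT and JUN AA, 0 members were 2-fold higher in JUN WT, against 2.89% of all genes, and 1 member (CASP1) was 2-fold lower, against 2.41%. JUN WT and JUN AA were set against the same control library. Over all listed genes the median difference was 0 in each of the 6 comparisons, many genes being listed at 0 in both libraries. The median of the 10 members was -0.04 for JUN WT against control, 0.12 for JUN AA against control and -0.22 for JUN WT against JUN AA. For the CM libraries it was 0.15 for iCAFs against MRC5, 0.0024 for iCAFs+JNKi against iCAFs and 0.45 for iCAFs+JNKi against MRC5.

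**Figure D1:**
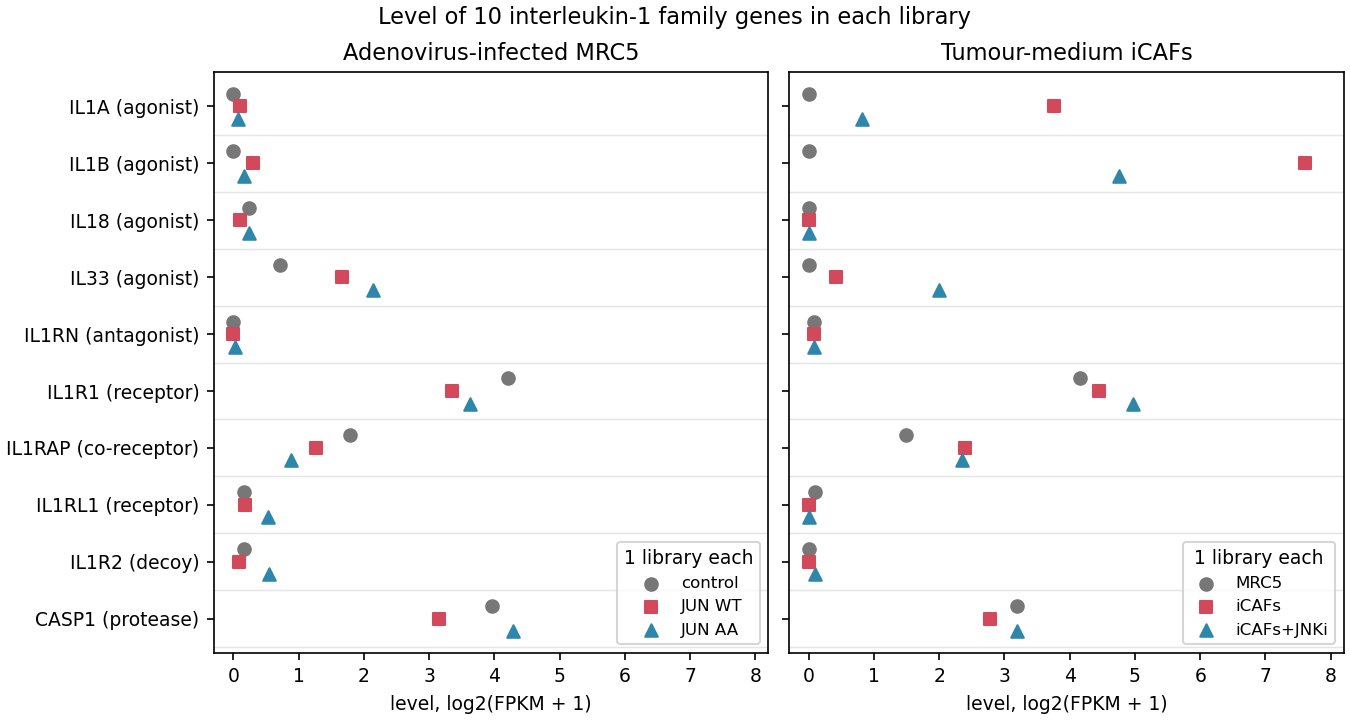
Level of each of the 10 genes as log2(FPKM + 1), with the adenovirus libraries on the left and the CM libraries on the right, and 1 point per library. IL1B spans the widest range, from 0 in MRC5 to 7.60 in iCAFs, whereas IL1RN and IL18 stay near 0 in every library and IL1R1 stays between 3.34 and 4.97.

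IL1B ranked 2 among all listed genes by its rise in iCAFs, with a log2 difference of 7.60. Its 194 FPKM placed it at rank 310 among the genes of the iCAFs library. With JNKi the log2 difference from iCAFs was -2.86, leaving 13.4% of the iCAFs level, and IL1B then stood at rank 2501. The remaining 25.9 FPKM was still 4.75 log2 units above MRC5, so the level with JNKi lay between the other two libraries. In the adenovirus table IL1B was listed at 0 in control and stood at 0.228 FPKM (JUN WT) and 0.119 FPKM (JUN AA), with a log2 difference of 0.30 for JUN WT against control and 0.16 for JUN AA. IL1B therefore had no 2-fold difference in the adenovirus model with the pseudocount of 1, although it was above 0 in both JUN libraries. With a pseudocount of 0.1 these differences were 1.71 and 1.13, both past 2-fold.

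By the same measure IL1A ranked 14, with a log2 difference of 3.76. With JNKi it fell by 2.94 log2 units, to 6.08% of its iCAFs level, and its 0.761 FPKM was 0.82 log2 units above MRC5 (3.11 with a pseudocount of 0.1). In the list of all falls with JNKi, IL1A was at rank 8 and IL1B at rank 11. IL1A was thus the lower of the pair in every library in which either was above 0. The IL1B level was 15.5 times that of IL1A in iCAFs and 34.0 times in iCAFs+JNKi, on FPKM, which is per exon length. In the adenovirus table IL1A was listed at 0 in control and stood at 0.0680 FPKM (JUN WT) and 0.049 FPKM (JUN AA), and no 2-fold difference was seen.

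IL33, the alarmin ligand of ST2, was the one member with a 2-fold difference in both tables. Its levels were 0.634 FPKM (control), 2.16 FPKM (JUN WT) and 3.42 FPKM (JUN AA). JUN AA was 1.44 log2 units above control (5.39-fold in FPKM), and JUN WT 0.95 log2 units above it (3.41-fold in FPKM), just short of the 2-fold line on the log2(FPKM + 1) scale. When each library was rescaled to the same FPKM sum, the JUN WT difference was 1.22 and past the line. JUN WT stood below JUN AA, with a log2 difference of -0.48. In the CM table IL33 was listed at 0 in MRC5 and stood at 0.335 FPKM (iCAFs) and 3.01 FPKM (iCAFs+JNKi). The difference of iCAFs+JNKi from iCAFs was 1.59 log2 units (8.98-fold in FPKM) and from MRC5 2.0 log2 units. The difference of iCAFs from MRC5 was 0.42, and 2.12 with a pseudocount of 0.1. With JNKi, IL33 was thus higher while IL1A and IL1B were lower, in the same pair of libraries. At these levels the ratio of IL33 to IL1B was 0.00173 in iCAFs and 0.116 in iCAFs+JNKi.

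IL18 was low throughout, at 0.174 FPKM (control), 0.0681 FPKM (JUN WT) and 0.184 FPKM (JUN AA). It was listed at 0 in MRC5, iCAFs and iCAFs+JNKi. IL-18, like IL-1β a cytokine released after inflammasome cleavage, thus had a message above 0 only in the adenovirus table.

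IL1RN, the antagonist, was near 0 in all libraries. It was listed at 0 in control and JUN WT and stood at 0.0207 FPKM in JUN AA. In the CM table it was at 0.0544 FPKM (MRC5), 0.0549 FPKM (iCAFs) and 0.0584 FPKM (iCAFs+JNKi), with log2 differences of at most 0.01. These ratios were close to those most common among low genes: MRC5 over iCAFs was 0.991 for IL1RN and 0.993 for the commonest ratio of genes under 0.5 FPKM in both libraries. For MRC5 over iCAFs+JNKi the values were 0.931 and 0.935, and for iCAFs over iCAFs+JNKi 0.939 and 0.943. Equal fragment numbers in the libraries would give ratios of this kind. The values of IL1RN are so low that a difference between libraries was not detectable.

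Among the receptors, IL1R1 was the most abundant, and it was present before any treatment. Its FPKM was 17.5 (control), 9.15 (JUN WT) and 11.4 (JUN AA). Both log2 differences from control, -0.87 and -0.58, were short of 2-fold, although that of JUN WT was -1.02 after centring on the median gene. In the CM table it stood at 16.9 FPKM (MRC5), 20.9 FPKM (iCAFs) and 30.4 FPKM (iCAFs+JNKi), with log2 differences of 0.29 between iCAFs and MRC5 and 0.52 between iCAFs+JNKi and iCAFs. IL1R1 was therefore lower than its control in both JUN libraries and higher than MRC5 in both CM libraries, each time by less than 2-fold. The gene (chr2:102681004-102796334, GRCh37, plus strand) shares 11 exon bases with the antisense gene IL1R1-AS1, and the strand setting of the quantification is not given in the sources used here.

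IL1RAP, the shared co-receptor of the IL-1 and IL-33 receptors (chr3:190231840-190377539, GRCh37, plus strand), was at 2.44 FPKM (control), 1.40 FPKM (JUN WT) and 0.835 FPKM (JUN AA). It was at 1.80 FPKM (MRC5), 4.28 FPKM (iCAFs) and 4.07 FPKM (iCAFs+JNKi). The log2 differences were -0.52 for JUN WT and -0.91 for JUN AA against control, 0.92 for iCAFs against MRC5 and -0.06 for iCAFs+JNKi against iCAFs. In FPKM the iCAFs level was 2.38 times that of MRC5, so the call depends on the added 1: with a pseudocount of 0.1 the difference was 1.21, and that of JUN AA from control was -1.44 (-1.33 after rescaling). The difference between iCAFs and MRC5 was also past 2-fold after rescaling. Unlike IL1A and IL1B, IL1RAP had nearly the same level in iCAFs and iCAFs+JNKi.

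IL1RL1, the ST2 receptor, was at 0.119 FPKM (control), 0.132 FPKM (JUN WT) and 0.440 FPKM (JUN AA). In the CM table it was at 0.0644 FPKM in MRC5 and listed at 0 in iCAFs and iCAFs+JNKi. The receptor of IL-33 was thus under 0.5 FPKM in every library, including those in which IL33 was highest. IL1RL1 (chr2:102927962-102968497, GRCh37, plus strand) shares 95 exon bases with the neighbouring IL18R1, so reads from that stretch cannot be assigned with certainty.

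IL1R2, the decoy receptor (chr2:102608422-102645006, GRCh37, plus strand), was at 0.115 FPKM (control), 0.0616 FPKM (JUN WT) and 0.463 FPKM (JUN AA). It was listed at 0 in MRC5 and iCAFs and stood at 0.0651 FPKM in iCAFs+JNKi. JUN AA held the highest level of IL1R2 in the adenovirus table, with a log2 difference of 0.39 from control and of -0.46 for JUN WT against JUN AA, both short of 2-fold. With a pseudocount of 0.1, JUN AA was 1.39 above control for IL1R2 and 1.30 above it for IL1RL1.

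CASP1 (chr11:104896124-104905977, GRCh37, minus strand), whose product cleaves pro-IL-1β, was well above 0 in every library. It stood at 14.6 FPKM (control), 7.84 FPKM (JUN WT) and 18.5 FPKM (JUN AA), and at 8.16 FPKM (MRC5), 5.88 FPKM (iCAFs) and 8.14 FPKM (iCAFs+JNKi). JUN WT was 1.14 log2 units lower than JUN AA (2.36-fold in FPKM), and it was 0.82 log2 units lower than control. When the libraries were rescaled to the same FPKM sum, the difference between JUN WT and JUN AA was no longer 2-fold. In the CM table the log2 differences were -0.41 for iCAFs against MRC5 and 0.41 for iCAFs+JNKi against iCAFs, so CASP1 was not higher in the library with the most IL1B. CARD16, a gene beside it that is a near copy of part of CASP1, was at 115 FPKM (control), 23.4 FPKM (JUN WT) and 96.5 FPKM (JUN AA), and the division of reads between the pair is uncertain.

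**Figure D2:**
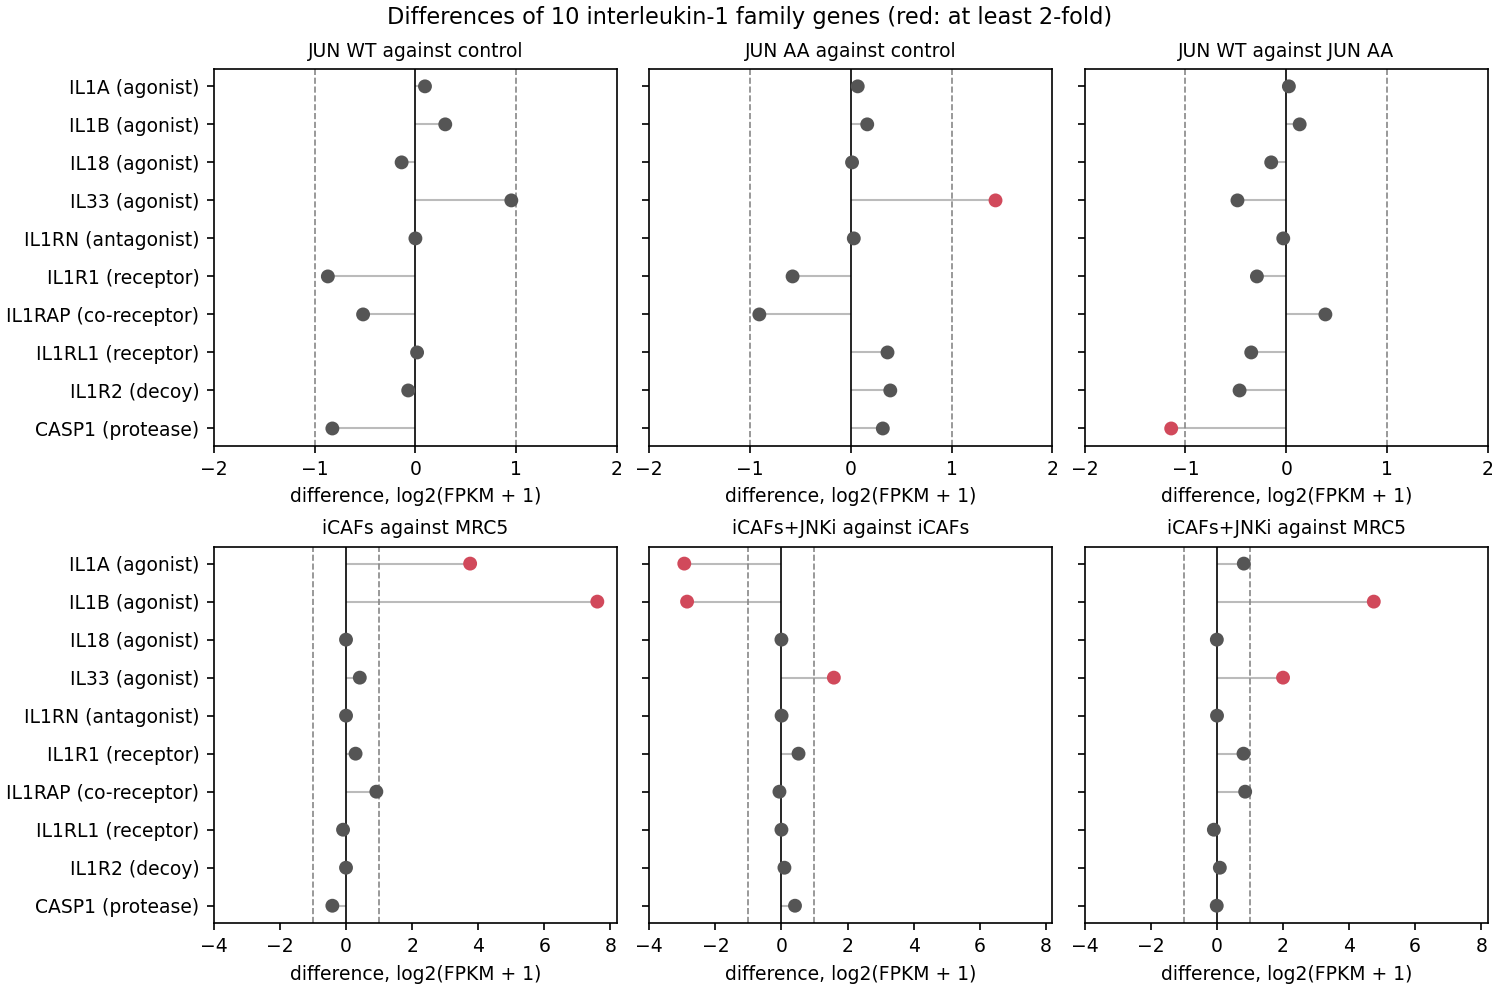
Difference in log2(FPKM + 1) of each of the 10 genes in the 6 comparisons, as the first-named library minus the second, with dashed lines at 2-fold and red points past them. The axes of the upper row run from -2 to 2 and those of the lower row are wider, and the red points are IL33 and CASP1 above, and IL1A, IL1B and IL33 below.

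IL1RN message was a small part of the agonist message wherever the agonists were high. IL1A and IL1B together were at 0 FPKM (MRC5), 206 FPKM (iCAFs) and 26.7 FPKM (iCAFs+JNKi), while IL1RN stayed between 0.0544 and 0.0584 FPKM. IL1RN was therefore 0.0266% of the summed agonists in iCAFs and 0.219% in iCAFs+JNKi, or 1 part to 3756 and to 456 parts. Both shares rest on IL1RN values near 0, so they are imprecise, and it was the agonists that differed between these libraries. In the adenovirus table the same share was 0% (JUN WT) and 12.3% (JUN AA), but there the agonists summed to only 0.296 and 0.168 FPKM, so this share rests on values near 0. In MRC5 and control both agonists were listed at 0 and the share could not be formed.

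The balance of decoy and signalling receptor was on the side of IL1R1 in every library. As a share of IL1R1, IL1R2 was 4.06% in JUN AA, against 0.659% in control and 0.674% in JUN WT. The share was 0% in MRC5 and iCAFs and 0.214% in iCAFs+JNKi. No library had as much as 5% decoy message, and JUN AA had the highest share. IL1R2 was at most 0.463 FPKM, in JUN AA, so these shares rest on values near 0 and are imprecise. The ratio of IL1R1 to its co-receptor IL1RAP was 7.18 (control), 6.52 (JUN WT) and 13.7 (JUN AA), and 9.42 (MRC5), 4.88 (iCAFs) and 7.47 (iCAFs+JNKi). IL1RAP was thus the less abundant chain of the pair in all libraries, and the ratio was lowest in iCAFs.

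Other genes of the IL-1 pathway were taken from 5 lists with 50 genes, which were also chosen with earlier results of these data known. In iCAFs 12 of the 50 were 2-fold higher than in MRC5, against 0.978% of all genes, and 1 was lower, against 0.891%. With JNKi 1 was higher than in iCAFs, against 1.18%, and 8 were lower, against 1.02%. In JUN WT 5 were higher than in control, against 3.0%, and 2 lower, against 1.45%. In JUN AA 2 were higher than in control, against 2.27%, and 2 lower, against 1.62%. Between JUN WT and JUN AA 8 were higher in JUN WT, against 2.89%, and 1 lower, against 2.41%. Between iCAFs+JNKi and MRC5 10 were higher, against 1.71%, and 0 lower, against 1.79%. The same percentages of all genes apply to the counts of the single lists below.

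The 6 other ligands of the family (IL36A, IL36B, IL36G, IL36RN, IL37 and IL1F10), which include the genes that lie between IL1B and IL1RN, were listed at 0 in all 6 libraries, except IL36RN at 0.161 FPKM in JUN AA. In the ligand cluster of chromosome 2, IL1A and IL1B were thus the genes with a measured rise in iCAFs. Of 7 other receptors and binding proteins none reached 2-fold in any comparison. The highest was SIGIRR, an inhibitory receptor of the family, at 4.01 FPKM (MRC5), 3.96 FPKM (iCAFs) and 1.99 FPKM (iCAFs+JNKi). For lower genes of this list the call depends on the added 1. The binding protein gene IL18BP, for example, was at 0.907 FPKM (control), 0.401 FPKM (JUN WT) and 0.215 FPKM (JUN AA).

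Of 16 signalling genes, 2 rose in iCAFs, against 0.978% of all genes, and 0 fell, against 0.891%. Those that rose were both members of the IRAK kinase family. IRAK2 was at 4.54 FPKM (MRC5), 20.7 FPKM (iCAFs) and 4.0 FPKM (iCAFs+JNKi), a rise of 1.97 and a fall of 2.12 log2 units. IRAK3, a negative regulator of the pathway, rose from 0.495 to 3.83 FPKM in iCAFs and was at 2.47 FPKM with JNKi. PELI2, a ubiquitin ligase that acts on IRAKs, was at 0.930 FPKM (MRC5), 1.17 FPKM (iCAFs) and 3.47 FPKM (iCAFs+JNKi), a rise of 1.04 log2 units with JNKi. IRAK2, like IL1A and IL1B, was highest in iCAFs. Its level with JNKi was near that of MRC5, with no 2-fold difference between them. In the adenovirus table the receptor adaptor MYD88 was at 22.4 FPKM (control), 43.9 FPKM (JUN WT) and 8.54 FPKM (JUN AA), a fall of 1.29 log2 units in JUN AA. IRAK2 was at 0.527 FPKM (control), 2.29 FPKM (JUN WT) and 0.388 FPKM (JUN AA), and IRAK4 at 1.15, 3.37 and 1.96 FPKM. IRAK2 and IRAK4 were the 2 signalling genes past 2-fold in JUN WT against control.

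Of 11 genes for processing and release, the inflammasome sensors NLRP3, NLRC4 and AIM2 were at or below 0.221 FPKM in every library. The adaptor PYCARD fell from 30.7 FPKM in control to 14.1 FPKM in JUN WT and was at 16.6 FPKM in JUN AA. CARD16 fell by 2.25 log2 units in JUN WT and by 1.01 in iCAFs, where it was at 13.4 FPKM against 28.1 FPKM in MRC5. CASP4 was 1.03 log2 units higher in JUN AA than in control, at 69.6 and 33.5 FPKM. In iCAFs+JNKi against iCAFs none of the 11 reached 2-fold, and apart from CARD16 none did in iCAFs against MRC5.

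The 10 response genes, known targets of IL-1 signalling in fibroblasts, all rose in iCAFs, with a median log2 difference of 3.23. Other inflammatory signals also induce these genes. IL6 went from 0.627 to 129 FPKM, CXCL8 from 0.153 to 548 FPKM, PTGS2 from 0.274 to 41.5 FPKM and ICAM1 from 3.46 to 45.7 FPKM. With JNKi 7 of the 10 fell and 0 rose, with a median of -1.19, and IL6 was then at 16.4 FPKM and PTGS2 at 6.61 FPKM. CXCL1, NFKBIZ and MMP3 were the 3 response genes that did not fall 2-fold with JNKi, at 101, 46.7 and 290 FPKM in iCAFs and 118, 38.4 and 268 FPKM in iCAFs+JNKi. The levels with JNKi stayed 2-fold above MRC5 for 8 of the 10. In JUN WT 3 of the 10 were 2-fold higher than in control: CXCL8 from a listed 0 to 4.46 FPKM, MMP1 from 31.1 to 414 FPKM and MMP3 from 3.61 to 43.4 FPKM. In JUN AA only MMP1 was 2-fold higher, at 155 FPKM, and ICAM1 was 2-fold lower, at 0.323 FPKM against 4.41 FPKM. Between JUN WT and JUN AA 6 of the 10 were higher in JUN WT and 0 lower. With the pseudocount of 1, IL1A and IL1B had no 2-fold difference in that table. Whether the response genes depended on them was not tested.

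**Figure D3:**
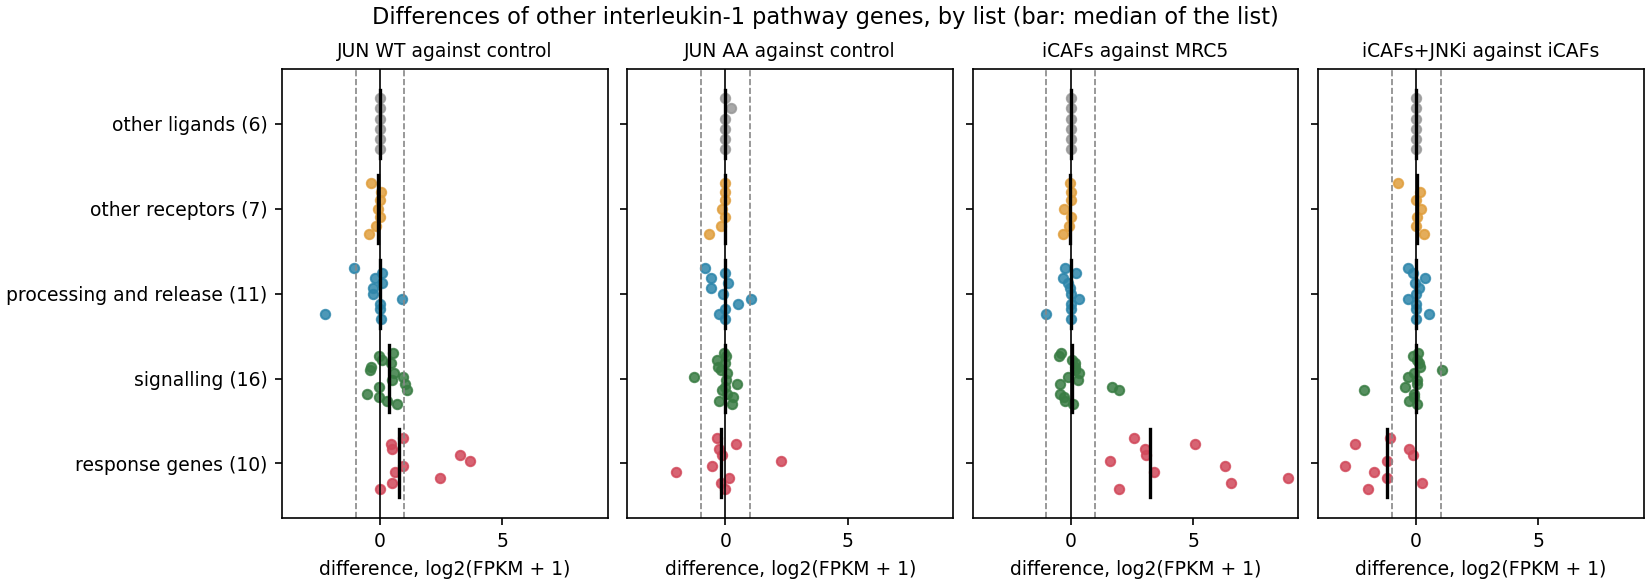
Difference in log2(FPKM + 1) of the 50 other IL-1 pathway genes in 4 of the comparisons, with 1 point per gene, the number of genes in brackets, a black bar at the median of each list and dashed lines at 2-fold. The response genes lie to the right in iCAFs against MRC5 (median 3.23) and to the left with JNKi (median -1.19), and the points of the other ligands lie at or near 0.

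To place IL1A and IL1B among all genes, genes were ranked by how near their pair of changes (iCAFs against MRC5, and iCAFs+JNKi against iCAFs) was to that of each ligand, over the 3 libraries and 11780 genes averaging 1 FPKM or more. The distance is in log2 units. Nearest to IL1A was CCL2, a monocyte chemokine, at a distance of 1.00, followed by CSF3 (1.13), which encodes G-CSF, the chemokine genes CCL20 (1.15) and CCL3 (1.21), and ICAM1 (1.28). Nearest to IL1B was IL6 at 1.29, followed by CXCL8 (2.11), PTGS2 (2.57), the complement gene C3 (2.75) and CCL20 (2.82). CCL20 was near both. IL6 left 12.8% of its iCAFs level with JNKi, close to the 13.4% of IL1B, whereas CXCL8 left 43.8% and C3 62.0%. Between IL1A and IL1B themselves the distance was 3.85, nearly all of it in the rise and not in the fall. The distances rest on 1 library per condition and the order depends on the pseudocount: with 0.1, 2 of the 5 nearest to IL1A and 3 of the 5 nearest to IL1B were the same.

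**Figure D4:**
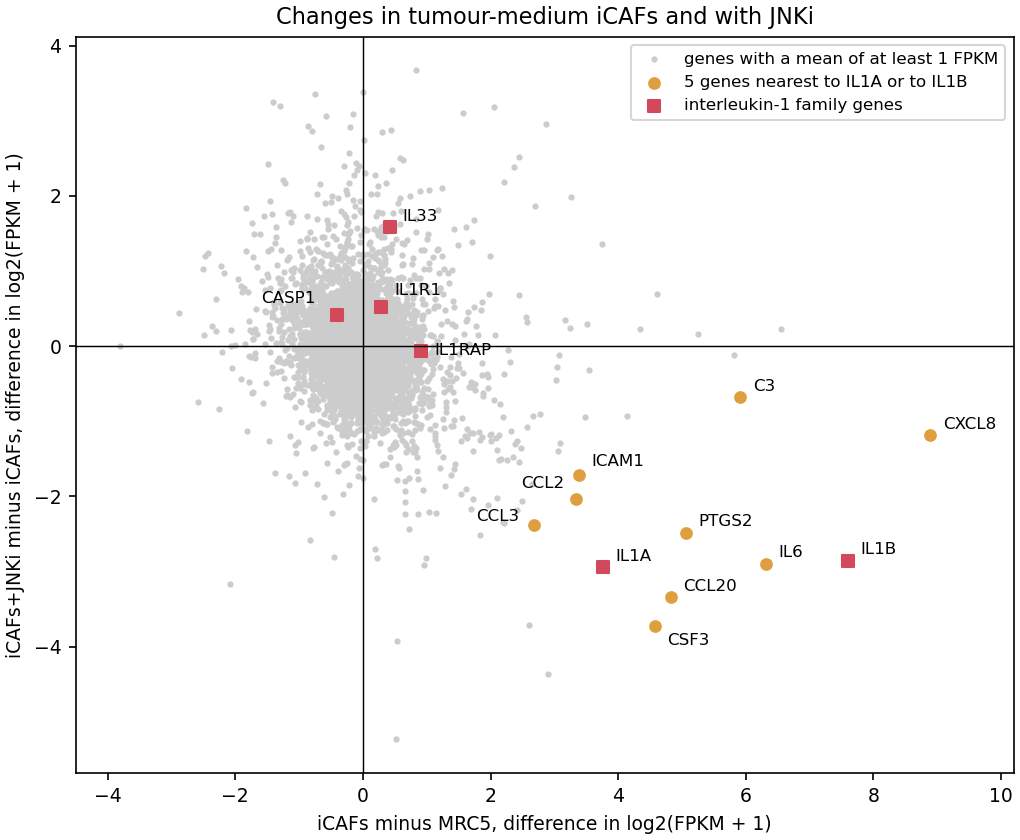
Difference between iCAFs and MRC5 (horizontal) against that between iCAFs+JNKi and iCAFs (vertical), both in log2(FPKM + 1), for the 11780 genes averaging 1 FPKM or more. IL1B (7.60 and -2.86) and IL1A (3.76 and -2.94) lie to the lower right together with the genes nearest to them, and both axes use the same iCAFs library, so a value of that library enters each axis with opposite sign.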

How the data were processed

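RNA-seq was performed on 6 libraries of MRC5 cells, 1 per condition, and groups were taken from the sample labels. Reads were mapped by the authors to hg19 with HISAT2 2.1.0, and the deposited FPKM per gene were computed by the authors with StringTie 2.1.1 (versions per the submitters' processing notes). The annotation, strand setting and read numbers are not given in the sources used here, so the depth behind each value is unknown and no interval or floor was given. FPKM are not counts, so no count model was used.

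Log2(FPKM + 1) differences for 6 comparisons, ratios of FPKM within a library and list counts were computed with Python 3.11.15, numpy 2.4.6 and pandas 2.3.3, and figures with matplotlib 3.10.9. Symbols on more than 1 row were represented by their row of highest mean. The computation was tested on simulated data. A change was called at 2-fold, with no filter, over all 25368 symbols. The 10 members are named, as are JUN, pathway genes with a 2-fold change and a mean of at least 1 FPKM in a table, and the 5 genes nearest to IL1A and to IL1B. SIGIRR, the other ligands and receptors listed, the inflammasome sensors and the cell type markers are named to describe their lists. The members and lists were chosen with earlier results of these data known. Gene positions come from GRCh37 with its GENCODE annotation.

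The alternatives were adding 0.1 before the log, a common FPKM sum of 1000000 per library, centring on the median gene, summed rows, a mean of at least 1 FPKM, folds of 1.5 and 3, IL1RN over each agonist alone, and 0.1 FPKM added before the receptor ratio.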

Additional observations from a re-analysis of the deposited data

How the results depend on the processing

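The changes called in the members kept their direction under every setting. Of 9 called changes, 9 stayed 2-fold after centring, with a pseudocount of 0.1 and with summed rows, and 8 after rescaling, where CASP1 in JUN WT against JUN AA was lost. Counts of members moved mostly through values near 0. Except for the filter on the mean, no share of all genes is given beside the counts under these settings. They therefore show only how the counts depend on the setting. With a pseudocount of 0.1, members 2-fold higher numbered 2 in JUN WT and 4 in JUN AA (1 lower) against control, 4 in iCAFs and 4 in iCAFs+JNKi against MRC5, and 3 were lower in JUN WT than in JUN AA; pathway genes numbered 10 higher and 5 lower in JUN WT, 6 higher and 5 lower in JUN AA, and 4 lower in JUN WT than in JUN AA. After rescaling, 1 member was higher in JUN WT, 1 lower in JUN AA, 0 lower in JUN WT than in JUN AA and 4 higher in iCAFs+JNKi than in MRC5, and pathway genes in JUN AA numbered 1 higher and 4 lower. IL1RAP in iCAFs against MRC5 was also past 2-fold after rescaling, and past 1.5-fold without it. After centring, 1 member was lower and 3 pathway genes were higher in JUN WT, and 0 pathway genes were lower in iCAFs. The median gene with a mean of at least 1 FPKM lay at 0.15 in JUN WT against control and at -0.16 in iCAFs+JNKi against MRC5. At 1.5-fold, 1 member was higher and 2 lower in JUN WT, 1 lower in JUN AA and 5 higher in iCAFs+JNKi than in MRC5, and at 3-fold 0 were higher in JUN AA and 0 lower in JUN WT than in JUN AA. The filter on the mean left all member counts as they were, but over 6 members in the CM table and 4 in the adenovirus table. The share of all genes rose with the filter in every comparison. For genes higher in iCAFs than in MRC5 it went from 0.978% to 1.94%. For genes lower with JNKi than in iCAFs it went from 1.02% to 1.97%, and for genes higher in JUN WT than in control from 3.0% to 6.92%. IL1RN over IL1A alone was 0.439% in iCAFs, 7.68% in iCAFs+JNKi and 42.5% in JUN AA. With 0.1 FPKM added, IL1R2 over IL1R1 was 0.587% in MRC5, 0.476% in iCAFs, 0.542% in iCAFs+JNKi, 1.22% in control and 1.75% in JUN WT. JUN AA still had the highest share. Apart from the construction of each setting, the causes were not tested. No paired analysis was possible because each condition has 1 library and no result comes from a test. Values under about 0.5 FPKM can rest on few fragments, since the depth is unknown.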
